A study of Arabidopsis thaliana with 9 samples.

Results

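The probe sets described here are those annotated to a gene of the mitochondrial genome of Arabidopsis thaliana or to a nuclear locus of chromosome 2 numbered from AT2G07500 to AT2G07899, the stretch where a copy of the mitochondrial genome lies. They were taken by annotation alone, with no filter on level or change, and came to 48 of the 16863 probe sets in the table. Of these 19 were annotated to mitochondrial genes only, 18 to chromosome 2 loci only, 10 to both and 1 to a chromosome 2 locus and another nuclear locus. They covered 23 mitochondrial genes and 29 chromosome 2 loci, 52 of the 9885 genes named in the annotation. All 9 arrays were used, 3 per genotype, each made from a pool of 75 to 100 soil-grown seedlings without their roots. The genotypes were wild-type Col-0, collected at 7 days, and 2 mutants, cct-1 and gct-2, both collected at 9 days, all in the Col-0 background and all at the stage where the first leaf primordia measured 1 mm. CCT and GCT encode the Mediator subunits MED12 and MED13. A mutant and wild type therefore differed by 2 days of age, and an effect of age cannot be told apart from one of genotype, while cct-1 and gct-2 had the same age.

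Plant mitochondria keep a small genome of their own. It encodes core subunits of the respiratory complexes and of the ATP synthase, proteins that attach heme to c-type cytochromes, and part of the mitochondrial ribosome, while most other mitochondrial proteins are made from nuclear genes and imported. Several of its messages are assembled with unusual steps: nad1, for example, is transcribed in separate pieces that are joined by trans-splicing, and many messages are edited from C to U. In the Col-0 nuclear genome a long stretch near the centromere of chromosome 2 is a copy of mitochondrial DNA, so the mitochondrial genes have near-identical nuclear counterparts there. A probe set can bind RNA from either copy. The suffix _s_at marks probe sets whose probes match more than 1 transcript, and 29 of the 48 carried it, 17 of these with only 1 gene in the annotation. The measured level of each of these 48 is therefore not assigned to the organelle or to the nucleus here.

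Levels are log2 values as deposited. Probe sets differ in how strongly they bind, so levels were compared between genotypes and not between probe sets. A level under its array's 40th percentile, about 6.86, was not shown to be above background. By this measure 7 of the 48 were above it on all 9 arrays and 36 on none, and mean levels ran from 1.63 to 11.38 with 33 of them under 5. In all, 11 of the 48 would have passed a filter asking for 3 arrays above that level, 3 of them only through the cct-1 arrays. A fold is given here only as measured together with a lower bound that raises the dimmer genotype to that level. Otherwise the log2 difference is given, whose size is uncertain for dim probe sets. Whole seedling tops were measured, so fewer cells of a type and less RNA per cell cannot be told apart.

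In cct-1 seedlings 15 of the 48 probe sets were higher than in wild type and 0 were lower. The largest differences were those of ccb452 (ccmFC, of cytochrome c maturation), 1 of 7 probe sets of nad1 (complex I), the probe set annotated to both atp9 and AT2G07671, and the loci AT2G07741 and AT2G07718. A probe set was called where limma's adjusted p lay under 0.05, with Benjamini-Hochberg adjustment over all 16826 probe sets fitted, of which 5.5% were called higher and 6.25% lower in this comparison. Among the probe sets with a mean under the 40th percentile level 6.32% were called higher. With a log2 difference of at least 1 the count was 7 of 48, against 1.18% of all probe sets. The median log2 difference of the 48 was 0.18, and that of all probe sets 0.02. The count at an unadjusted p under 0.05 was 20 of 48 (41.7%), against 28% of all probe sets. The cct-1 arrays lay above all wild-type arrays without overlap in 21 of the 48, against 16.5% of all probe sets. In each of the 15 called, all 3 cct-1 arrays lay above the 6 other arrays. That they lay above the wild-type arrays largely follows from the call. The share over all called probe sets is not given here. Of the 15, 12 lay under the 40th percentile level on every array, and the call of 9 held in each of 15 other fits of all probe sets (other normalizations, variance models and sets of arrays) at the same threshold. The count fell to 9 without wild-type replicate 2, where the calls over all probe sets fell from 1976 to 1050.

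**Figure D1:**
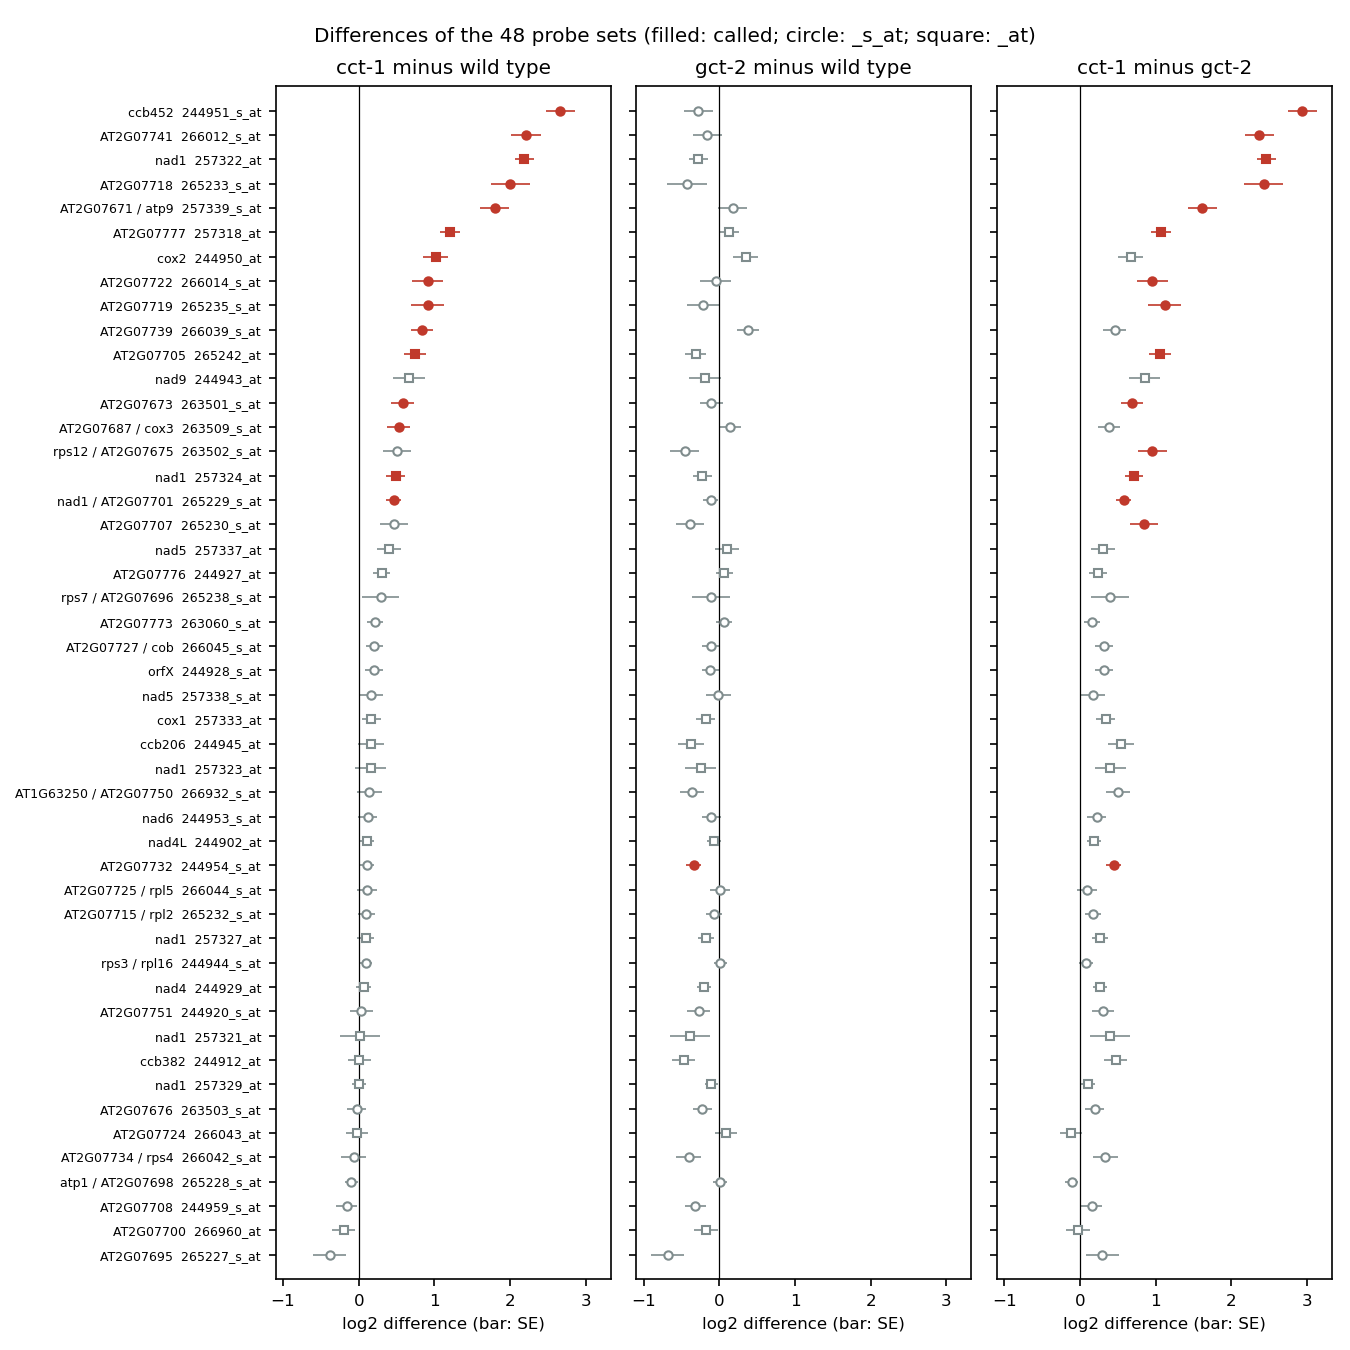
The log2 differences of the 48 probe sets (horizontal axis) are drawn for the 3 comparisons, ordered by the difference of cct-1 from wild type. Bars are standard errors, filled symbols are probe sets called at an adjusted p under 0.05, and circles and squares separate identifiers ending in _s_at from the others. The left and right panels each hold 15 filled symbols, all to the right of 0, and the middle panel holds 1, to the left of 0.

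Cytochrome c maturation was represented by 3 probe sets. The product of ccb452, now named ccmFC, is part of the machinery that attaches heme to c-type cytochromes. Its levels were 4.49, 5.02 and 4.73 on the wild-type arrays, 7.14, 7.57 and 7.50 on the cct-1 arrays and 4.77, 4.17 and 4.47 on the gct-2 arrays. All cct-1 arrays lay above the 40th percentile level and all other arrays under it. The difference of cct-1 from wild type was 2.66 (SE 0.19, adjusted p = 0.000156 with limma), which is 6.32-fold as measured and at least 1.47-fold. Against gct-2 it was 2.94 (adjusted p = 0.000408), and gct-2 differed from wild type by -0.28 (adjusted p = 0.364). A second heme-attachment gene, ccb382 (ccmFN1), had levels of 8.67, 8.50 and 8.33 in wild type, 8.78, 8.39 and 8.35 in cct-1 and 8.17, 8.10 and 7.82 in gct-2. The wild-type and cct-1 arrays overlapped, with a difference of 0.01 (95% interval -0.33 to 0.35) that turned below 0 with quantile normalization and median centring. The gct-2 arrays of ccb382 all lay under the wild-type ones, by a difference of -0.47 that was not called (adjusted p = 0.0687). It was called with array weights (adjusted p = 0.0326), with the replicate number as a block (0.0257) and without cct-1 replicate 1 (0.0458). ccb206 (ccmB, a membrane subunit of the same pathway) had means of 3.86 ± 0.33, 4.02 ± 0.13 and 3.48 ± 0.19 (SD, n = 3) in wild type, cct-1 and gct-2 and was not called in any comparison.

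Complex I, the NADH dehydrogenase that feeds electrons into the respiratory chain, was represented by 13 probe sets, of which 3 were higher in cct-1 and 0 lower (5 at an unadjusted p under 0.05). All 3 were probe sets of nad1, a membrane-arm subunit. The probe set 257322_at had levels of 2.87, 2.77 and 2.65 in wild type, 5.15, 4.87 and 4.81 in cct-1 and 2.31, 2.62 and 2.54 in gct-2. The cct-1 arrays stood apart from both other genotypes, which lay near each other. Its differences were 2.18 from wild type (SE 0.12, adjusted p = 4.97e-05 with limma) and 2.46 from gct-2 (adjusted p = 0.000178). For 257324_at the means were 2.26 ± 0.13 in wild type, 2.75 ± 0.24 in cct-1 and 2.04 ± 0.03 in gct-2 (SD, n = 3), a difference of 0.49 from wild type (adjusted p = 0.0372) that lost its call in 9 of the 15 other fits. For 265229_s_at, annotated to both nad1 and AT2G07701, the means were 2.16 ± 0.09, 2.63 ± 0.15 and 2.04 ± 0.05, a difference of 0.47 (adjusted p = 0.0189) that lost its call in 4 of the 15.

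The other 4 probe sets of nad1 did not pass the test in cct-1, so that the probe sets annotated to this gene disagreed. 257323_at, which lay above the 40th percentile level on 6 of 9 arrays, had a difference of 0.16 from wild type (95% interval -0.30 to 0.62). 257321_at had 0.02, with an interval from -0.58 to 0.62. The difference was 0.09 for 257327_at. For 257329_at it was 0.00, and this probe set held the same value, 2.07, on 6 of the 9 arrays. The intervals of these 4 all ended below the lower end of the interval of 257322_at, which ran from 1.90 to 2.46. Whether they bind different pieces of the nad1 message was not tested.

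**Figure D2:**
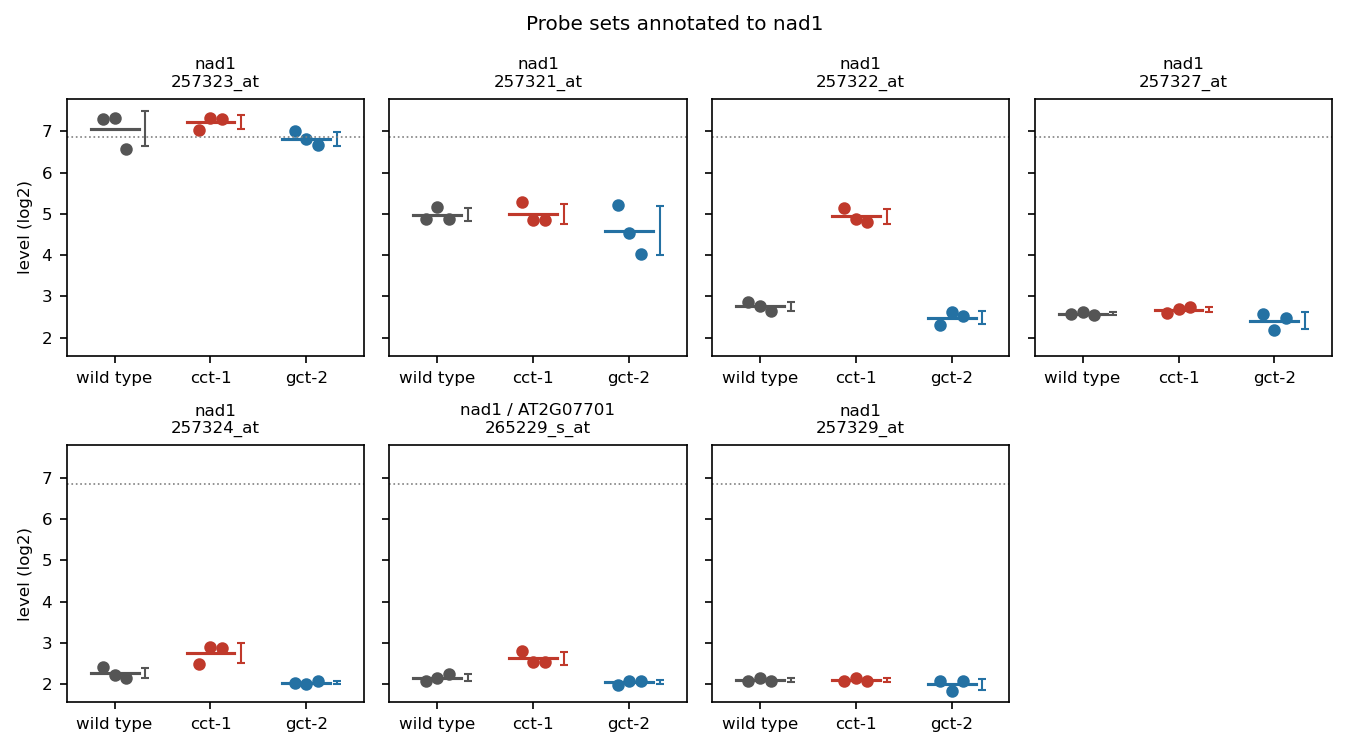
Levels (log2, vertical axis) of the 7 probe sets annotated to nad1 are drawn by genotype, with 1 point per array, the mean as a horizontal line and the SD as a bar. The dotted line is the median of the arrays' 40th percentiles. Only 257322_at shows the cct-1 arrays more than 1 unit above all other arrays.

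Among the remaining complex I genes none was called in cct-1. nad4, another membrane-arm subunit, had levels of 10.15, 10.27 and 10.25 in wild type, 10.35, 10.15 and 10.36 in cct-1 and 10.12, 9.92 and 10.01 in gct-2. Its wild-type and cct-1 arrays overlapped, and the difference was 0.06 (95% interval -0.15 to 0.28). nad9, of the arm that reaches into the matrix, had means of 2.55 ± 0.02, 3.21 ± 0.20 and 2.36 ± 0.48 (SD, n = 3) in wild type, cct-1 and gct-2. All its cct-1 arrays lay above the others, but the difference of 0.67 missed the threshold (adjusted p = 0.0756), as did that of 0.85 from gct-2 (adjusted p = 0.056). It was called in cct-1 with an intensity trend and robust variance, in the fit of cct-1 and wild type alone and without gct-2 replicate 3. The differences from wild type were 0.11 for nad4L, 0.12 for nad6, and 0.16 and 0.40 for the 2 probe sets of nad5.

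Complex III was represented by the probe set annotated to both cob, the gene of apocytochrome b, and AT2G07727. Its levels were 3.63, 3.44 and 3.51 in wild type, 3.93, 3.71 and 3.56 in cct-1 and 3.29, 3.43 and 3.52 in gct-2. The wild-type and cct-1 arrays overlapped, and the difference of 0.21 was not called (adjusted p = 0.281). Complex IV, cytochrome c oxidase, had 3 probe sets, 1 for each of its core subunits, and 2 of these were higher in cct-1 than in wild type. cox2 had levels of 2.73, 2.66 and 2.39 in wild type, 3.49, 3.69 and 3.64 in cct-1 and 2.62, 3.26 and 2.93 in gct-2. The gct-2 arrays of cox2 reached from within the wild-type range to above it, and all lay under the cct-1 arrays. cox2 differed by 1.02 between cct-1 and wild type (SE 0.16, adjusted p = 0.00523 with limma) and by 0.67 between cct-1 and gct-2, which just missed the threshold (adjusted p = 0.0527). The probe set annotated to both cox3 and AT2G07687 differed by 0.53 (adjusted p = 0.0493), a call held in 5 of the 15 other fits. cox1 had levels of 8.48, 8.41 and 8.45 in wild type, 8.50, 8.71 and 8.63 in cct-1 and 8.02, 8.51 and 8.27 in gct-2. Its cct-1 arrays lay just above the wild-type ones without passing the test, with a difference of 0.16 (95% interval -0.12 to 0.45).

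The ATP synthase was represented by 2 probe sets that differed in their result. The probe set annotated to both atp9, the gene of the membrane-ring subunit, and AT2G07671 had levels of 5.74, 5.74 and 5.32 in wild type, 6.96, 7.53 and 7.69 in cct-1 and 5.76, 5.75 and 5.81 in gct-2. It was above the 40th percentile level on the cct-1 arrays only. The difference of cct-1 from wild type was 1.80 (SE 0.19, adjusted p = 0.000775 with limma), 3.47-fold as measured and at least 1.46-fold, and that from gct-2 was 1.62 (adjusted p = 0.00517). The probe set annotated to both atp1, the gene of the catalytic head's alpha subunit, and AT2G07698 had levels of 11.43, 11.40 and 11.38 in wild type, 11.35, 11.16 and 11.41 in cct-1 and 11.44, 11.42 and 11.38 in gct-2. All 3 genotypes overlapped, and cct-1 differed from wild type by -0.10 (95% interval -0.29 to 0.10).

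Of the 6 probe sets of mitochondrial ribosomal protein genes, 0 were called between cct-1 and wild type with limma, and 1 had an unadjusted p under 0.05. The probe set annotated to both rps3 and rpl16 had levels of 10.18, 10.11 and 10.20 in wild type, 10.20, 10.34 and 10.23 in cct-1 and 10.29, 10.16 and 10.07 in gct-2. Its arrays overlapped between all genotypes, with a difference of 0.09 (95% interval -0.11 to 0.29). The probe set annotated to both rps12 and AT2G07675 had means of 6.20 ± 0.24, 6.71 ± 0.24 and 5.75 ± 0.30 (SD, n = 3) and was called between the mutants only, by 0.96 (adjusted p = 0.0284). The other 4, annotated to rps4, rps7, rpl2 and rpl5 together with AT2G07734, AT2G07696, AT2G07715 and AT2G07725 respectively, had differences of cct-1 from wild type of -0.07, 0.29, 0.10 and 0.11. The gene orfX (mttB, a membrane protein of a twin-arginine type translocase) had levels of 2.05, 2.12 and 2.06 in wild type, 2.36, 2.21 and 2.25 in cct-1 and 2.05, 2.11 and 1.70 in gct-2. The cct-1 arrays of orfX lay above all others, with a difference of 0.20 that was not called (adjusted p = 0.299).

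The chromosome 2 loci without a mitochondrial gene in their annotation made up 19 probe sets, of which 8 were higher in cct-1 than in wild type. AT2G07741 had levels of 3.64, 3.77 and 3.31 in wild type, 5.62, 6.06 and 5.67 in cct-1 and 3.13, 3.76 and 3.35 in gct-2. The wild-type and gct-2 arrays overlapped and lay well under the cct-1 arrays, which differed from wild type by 2.21 (SE 0.19, adjusted p = 0.000335 with limma). AT2G07718 had levels of 5.89, 6.01 and 5.94 in wild type, 8.58, 7.84 and 7.42 in cct-1 and 5.81, 5.31 and 5.44 in gct-2. Its cct-1 arrays spread widely but all lay above the 40th percentile level, and all other arrays lay under it. The difference from wild type was 2.00 (SE 0.26, adjusted p = 0.00214), 4.01-fold as measured and at least 2.15-fold. AT2G07777 had levels of 1.33, 1.42 and 1.28 in wild type, 2.23, 2.71 and 2.70 in cct-1 and 1.51, 1.47 and 1.46 in gct-2, all of them dim. The difference was 1.20 (adjusted p = 0.000938).

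AT2G07719 and AT2G07705 were called with smaller differences. AT2G07719 had levels of 2.49, 2.36 and 2.46 in wild type, 2.81, 3.86 and 3.36 in cct-1 and 2.31, 2.31 and 2.06 in gct-2. Its cct-1 arrays were spread over about 1 unit, and the difference of 0.91 (SE 0.22, adjusted p = 0.0314) kept its call in 7 of the 15 other fits. AT2G07705 had levels of 3.33, 3.55 and 2.99 in wild type, 4.08, 3.87 and 4.17 in cct-1 and 3.02, 2.99 and 2.92 in gct-2, with a difference of 0.75 (SE 0.14, adjusted p = 0.0122) that held in all 15. The last 3 called were AT2G07722 (0.91, adjusted p = 0.0239), AT2G07739 (0.84, adjusted p = 0.00834) and AT2G07673 (0.58, adjusted p = 0.0389), of which the first lost its call in 5 of the 15 other fits (adjusted p up to 0.0734), the second in 0 and the last in 10. Of the 11 not called, AT2G07707 had a difference of 0.46 and AT2G07776 one of 0.30. The others lay between -0.38 (AT2G07695) and 0.22 (AT2G07773), with AT2G07732, AT2G07751, AT2G07676, AT2G07724, AT2G07708, AT2G07700 and the probe set annotated to both AT1G63250 and AT2G07750 between them. AT2G07695 was called lower in cct-1 only when wild-type replicate 3 was left out (-0.63, adjusted p = 0.0469).

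**Figure D3:**
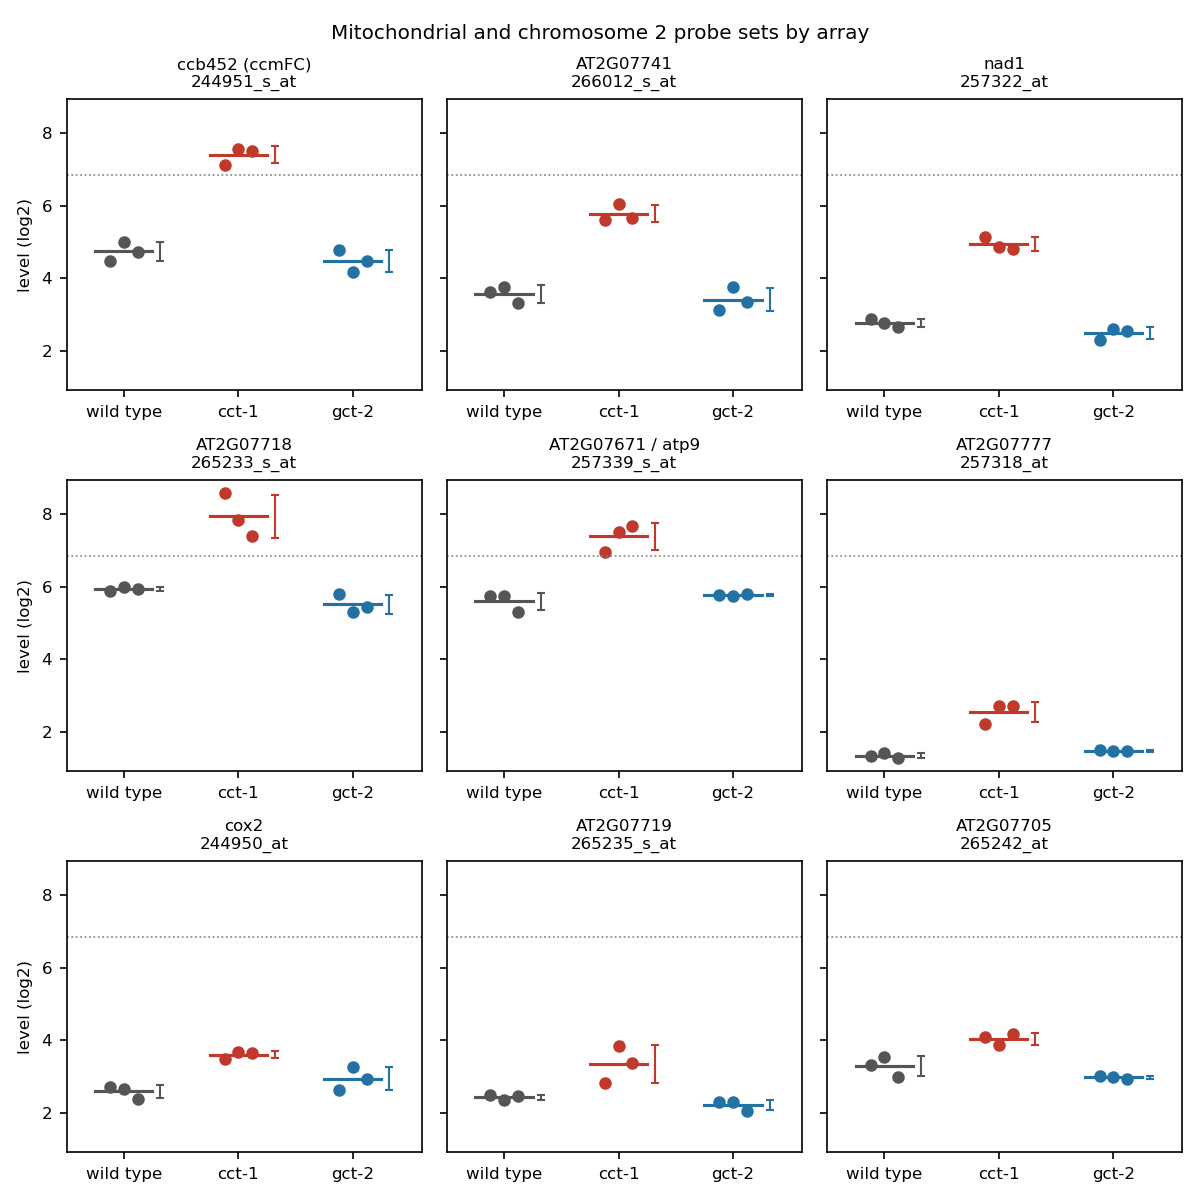
Levels (log2, vertical axis) of the 9 probe sets called with a log2 difference of at least 1 in any comparison are drawn by genotype, with 1 point per array, the mean as a horizontal line and the SD as a bar. The dotted line is the median of the arrays' 40th percentiles. In all 9 panels the cct-1 arrays lie above every wild-type and gct-2 array, and in 3 panels they lie above the dotted line.

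Set in chromosomal order, as RefSeq lists them for TAIR10.1, the 29 loci with a probe set included 11 whose probe set was called higher in cct-1. These formed 5 runs among the measured loci. AT2G07777, AT2G07671 and AT2G07673 were neighbours in this order, as were AT2G07718, AT2G07719 and AT2G07722. AT2G07701 lay next to AT2G07705 and AT2G07739 next to AT2G07741, and AT2G07687 stood alone. Between them lay uncalled loci. Some had intervals that included 0, such as AT2G07698 with atp1 and AT2G07676 (-0.02, 95% interval -0.31 to 0.26). Those of AT2G07675 with rps12 (0.50, 95% interval 0.08 to 0.93) and AT2G07707 (0.46, 0.05 to 0.88) lay above 0, though neither was called. Of the 11 called loci, 10 lay in runs of 2 or 3, with uncalled loci between the runs. The runs were not tested.

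**Figure D4:**
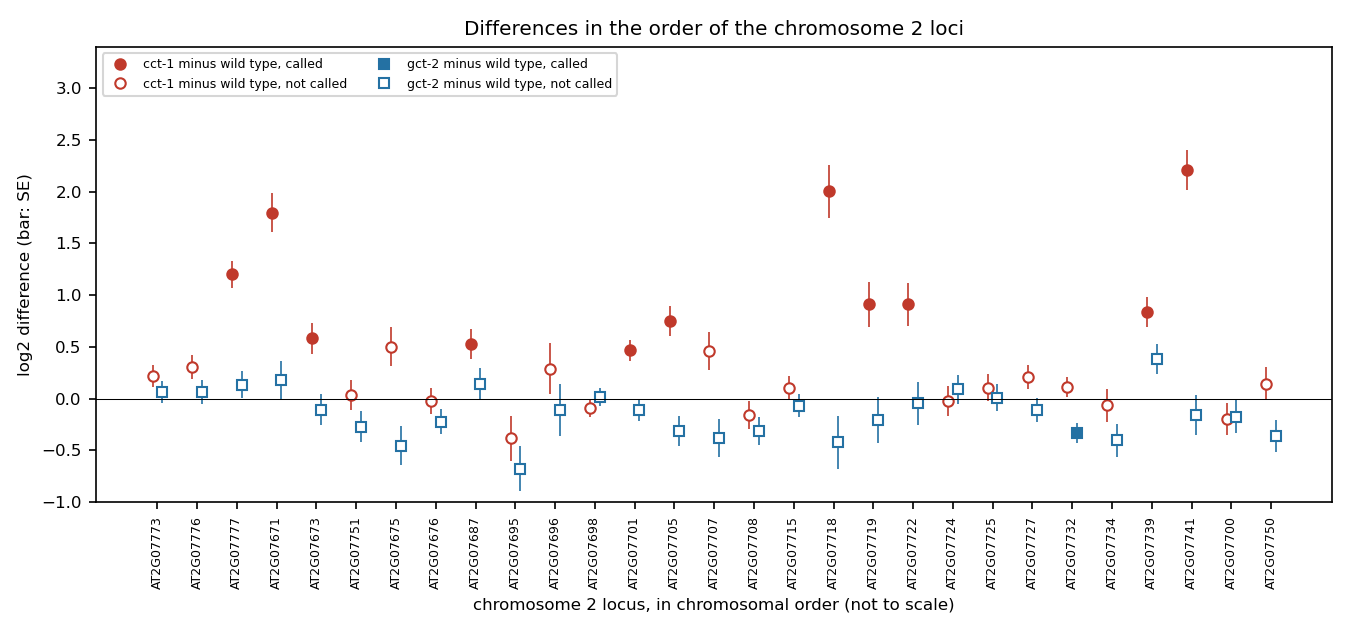
Log2 differences from wild type (vertical axis, bars are standard errors) are drawn for the 29 chromosome 2 loci in chromosomal order, evenly spaced. Circles are cct-1, squares gct-2, and filled symbols are called. The 11 filled circles lie in 5 runs, and 1 square, AT2G07732, is filled.

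When the mutants, which had the same age, were compared with each other, 15 of the 48 were higher in cct-1 and 0 lower. At an unadjusted p under 0.05 there were 27 of 48 (56.2%), against 20.7% of all probe sets. Over all probe sets 2.45% were called higher and 2.13% lower. With a log2 difference of at least 1 the count was 8 of 48, against 0.422% of all. The cct-1 arrays lay above all gct-2 arrays without overlap in 30 of the 48, against 13.8% of all probe sets. Of the 15, 12 were among those called against wild type. Both comparisons use the same cct-1 arrays, so their calls are not independent. The 3 called against gct-2 only were AT2G07707 (0.85, adjusted p = 0.0403), AT2G07732 (0.45, adjusted p = 0.0413) and the probe set annotated to both rps12 and AT2G07675. Their calls held in 8, 4 and 9 of the 15 other fits. Of all 15 calls against gct-2, 7 held in each of them. The 3 called against wild type only were cox2, AT2G07739 and the probe set annotated to both cox3 and AT2G07687. Besides those given above, the differences from gct-2 were 2.43 for AT2G07718 (adjusted p = 0.0042 with limma), 2.37 for AT2G07741 (adjusted p = 0.00109), 1.12 for AT2G07719 (adjusted p = 0.0294, up to 0.104 in the other fits, where 7 of 15 kept the call), 1.07 for AT2G07777 (adjusted p = 0.00584) and 1.06 for AT2G07705 (adjusted p = 0.00765). The fold of AT2G07718 was 5.38 as measured and at least 2.15. The count fell to 7 without gct-2 replicate 3, to 8 without gct-2 replicate 2 and to 9 without cct-1 replicate 3. Over all probe sets the calls in this comparison fell as well, from 772 to 207, 238 and 401.

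In gct-2 seedlings 0 of the 48 were higher than in wild type and 1 was lower, against 7.53% higher and 8.16% lower over all probe sets. At an unadjusted p under 0.05 there were 8 of 48 (16.7%), against 31.4% of all probe sets. The 1 called was AT2G07732, with means of 3.27 ± 0.08 in wild type and 2.93 ± 0.04 in gct-2 (SD, n = 3), a difference of -0.34 (adjusted p = 0.0482 with limma). Its arrays did not overlap, but the call held in 3 of the 15 other fits. The largest other differences were -0.68 for AT2G07695 (adjusted p = 0.0667) and -0.47 for ccb382. AT2G07695 was called lower in gct-2 with array weights (-0.74, adjusted p = 0.0269), with an intensity trend and robust variance and without wild-type replicate 3. The 9 probe sets drawn by array ranged from -0.43 (AT2G07718) to 0.35 (cox2) in gct-2, and 0 of them were called. The comparisons with wild type share the wild-type arrays.

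The 7 probe sets above the 40th percentile level on all 9 arrays were those of nad4, nad4L, cox1 and ccb382, 257338_s_at of nad5, rps3 with rpl16, and atp1 with AT2G07698. Of these 0 were called in any of the 3 comparisons. Over all probe sets 5.5% were called higher and 6.25% lower in cct-1 than in wild type, so a count of 0 among 7 says little. Their differences of cct-1 from wild type ran from -0.10 to 0.16, with 0 at an unadjusted p under 0.05, against 28% of all probe sets. Their differences of cct-1 from gct-2 ran from -0.11 to 0.48, with 3 at an unadjusted p under 0.05, against 20.7% of all probe sets.

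**Figure D5:**
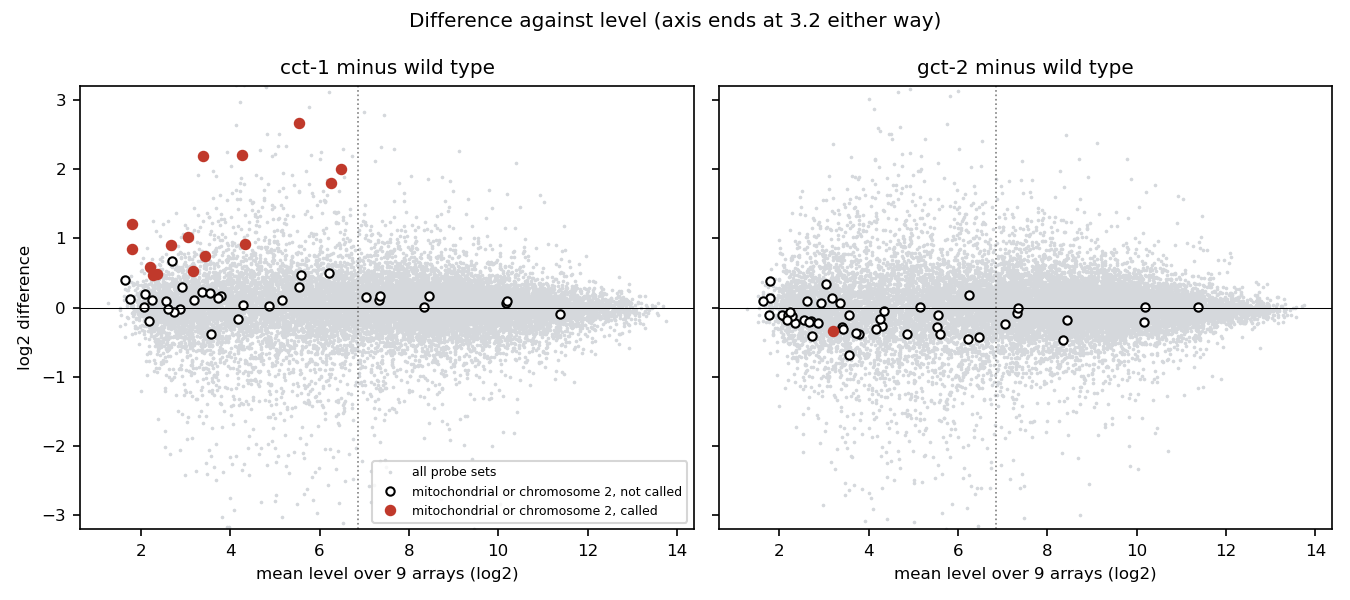
The log2 difference from wild type (vertical axis) is drawn against the mean level over 9 arrays (horizontal axis) for cct-1 on the left and gct-2 on the right. Small grey points are all probe sets, open circles the mitochondrial and chromosome 2 probe sets not called, filled circles those called, and the dotted line is the median of the arrays' 40th percentiles. All 15 filled circles on the left lie left of the dotted line, and the open circles right of it lie between -0.10 and 0.16.

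Probe sets that can bind several transcripts and the others were both among those called. Of the 29 with identifiers ending in _s_at 10 were higher in cct-1 than in wild type, and of the 19 others 5 were. Against gct-2 the counts were 11 and 4. By annotation 4 of 19 with mitochondrial genes only, 8 of 18 with chromosome 2 loci only and 3 of 10 with both were higher in cct-1 than in wild type. None of these differences in share was tested.

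Nuclear genes of mitochondrial function were counted in the same fit. The 89 listed encode respiratory subunits, cytochrome c and factors of mitochondrial RNA and DNA maintenance. Of these 36 had a probe set annotated to that gene alone, and only these were counted. In cct-1 1 was higher and 0 lower, against 5.5% and 6.25% of all probe sets. At an unadjusted p under 0.05 there were 5 of the 36, against 28% of all. The one higher was AT5G25450, on the complex III list, which differed by 0.78 in cct-1 (adjusted p = 0.0194) and by 0.61 in gct-2 (adjusted p = 0.0404). In gct-2 2 were higher and 1 lower, against 7.53% and 8.16% of all probe sets, and 7 had an unadjusted p under 0.05, against 31.4%. The second one higher was AT5G14580, which encodes a mitochondrial polynucleotide phosphorylase (0.98, adjusted p = 0.0322), and the one lower was the cytochrome c gene CYTC-2 (-0.77, adjusted p = 0.0119). CCMH, a nuclear partner of the heme-attachment proteins, differed by 0.07 in cct-1. Between the mutants 0 of the 36 were called and 10 had an unadjusted p under 0.05, against 20.7% of all probe sets. Of 77 probe sets of plastid genes, the other organelle genome, 0 were higher and 1 was lower in cct-1, against 5.5% and 6.25% of all probe sets. At an unadjusted p under 0.05 there were 13 (16.9%), against 28% of all. Their median difference was -0.14, and 13 of the 77 differences were above 0. In 21 the cct-1 arrays lay below all wild-type arrays, against 2575 of all 16826. In gct-2 4 of the 77 were lower than in wild type and 0 higher, against 8.16% and 7.53% of all probe sets. From gct-2 to cct-1 3 of the 77 were lower and 0 higher, against 2.13% and 2.45% of all.

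Array medians lay between 7.695 and 7.758, 0 pairs of arrays were identical, and Pearson's r across probe sets was 0.9889 to 0.9955 within a genotype and 0.9745 to 0.9898 between genotypes. The 3′ minus 5′ differences of the control probe sets were read from 2 pairs each for actin, GAPDH and ubiquitin. In 1 ubiquitin pair they were 1.79 to 1.86 in wild type, 1.47 to 1.69 in cct-1 and 1.54 to 1.63 in gct-2. In the second ubiquitin pair they were 1.46 to 1.58, 1.40 to 1.52 and 1.31 to 1.45. In the second actin pair they were 4.44 to 4.61 in wild type, 4.28 to 4.58 in cct-1 and 4.32 to 4.35 in gct-2. In the other actin pair and both GAPDH pairs the ranges of the genotypes overlapped. The control probe set of 5S ribosomal RNA was high on cct-1 replicates 1 and 2, at 5.66 and 3.89, but at 1.53 on cct-1 replicate 3, against 1.41 to 2.22 on the wild-type and gct-2 arrays. That of 25S ribosomal RNA was at 6.99 to 7.29 in wild type, 5.65 to 6.80 in cct-1 and 5.62 to 6.26 in gct-2. Of the root markers listed 0 of 7 had a probe set annotated to that gene alone. Of the green tissue markers 2 of 9 had one, PSAE-1 and PSAN of photosystem I, at mean levels from 12.8 to 13.4. Their differences of cct-1 from wild type were not called, at -0.30 (unadjusted p = 0.0168, adjusted p = 0.0933 with limma) and -0.24 (unadjusted p = 0.0216, adjusted p = 0.109). CCT and GCT had no named probe set, so the genotype labels could not be checked against them. What part RNA quality, tissue makeup or the nuclear copy have in these differences was not tested.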

How the data were processed

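Affymetrix arrays were hybridised with amplified cDNA from column-purified, DNase-treated RNA of above-ground seedlings, per the labels' protocols. The values used are log2 probe set levels as deposited by the authors. GCRMA and MAS5 are listed with no step or version, per the submitters' processing notes, so the background correction and normalization each performed, and how the 16863 probe sets were chosen, are not given in the sources used here. Genes came from the platform annotation (9335 probe sets with 1 gene, 351 with several, 7140 with none). The 23 mitochondrial gene identifiers were matched to the RefSeq table of TAIR10.1 by symbol or synonym.

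The 37 control probe sets were left out and the other 16826 fitted in R 4.3.3 with limma 3.58.1 (lmFit, eBayes), with a mean per genotype, no filter and Benjamini-Hochberg adjustment over all of them. The earlier filter at the 40th percentile was an alternative here, since most of the 48 lie under it. Values of every array are given for probe sets called with a log2 difference of at least 1 in any comparison, and for the brightest of each functional class. The fits were tested on simulated data. The members and gene lists were chosen with earlier results of these data known. Replicate numbers did not pair samples: deviations of same-numbered arrays correlated at -0.284 to 0.0993. Alternatives were the filter, other normalizations, variance models, thresholds and subsets, and leaving out each array. Each array is a separate biological replicate per the labels. No sequences were used.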

Additional observations from a re-analysis of the deposited data

Results flagged for a closer look

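Between the mutants 8 probe sets were called with a log2 difference of at least 1. This comparison was among those by which probe sets were chosen for naming, and AT2G07719 and AT2G07705 were chosen through it alone, so that they passed it follows from the choice, and the values are a description. On the log2 scale cct-1 lay above gct-2 by 2.94 for ccb452, 2.46 for the nad1 probe set 257322_at, 2.43 for AT2G07718, 2.37 for AT2G07741, 1.62 for the probe set annotated to both atp9 and AT2G07671, 1.12 for AT2G07719, 1.07 for AT2G07777 and 1.06 for AT2G07705. The call of AT2G07719 was kept in 7 of 15 other fits (adjusted p up to 0.104). In each of the 8 all 3 cct-1 arrays lay above all 3 gct-2 arrays.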

How the results depend on the processing

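The main counts of the 48 probe sets called were 15 (cct-1 against wild type), 1 (gct-2 against wild type) and 15 (cct-1 against gct-2). Over all probe sets 11.7%, 15.7% and 4.59% were called in either direction. In the same order the counts of the 48 were 8, 0 and 7 at an adjusted p under 0.01 and 7, 0 and 8 with at least a 2-fold difference. They were 5, 0 and 4 among the 19 without _s_at, and 3, 0 and 3 among the 11 passing the 40th percentile filter, fewer probe sets entering in these last settings. The 3 called among the 11 are those that passed the filter only through the cct-1 arrays, so this count is no support. The gct-2 count was 0 with quantile normalization and with median centring, where 15.9% and 15.7% of all probe sets were called. With array weights it was 7 (1 higher, 6 lower), where 24% of all probe sets were called. With the replicate number as a block the counts were 10, 1 and 8, against 8.89%, 12.9% and 2.56% of all probe sets. Since the numbers did not pair the samples, a call lost under the block is not a weaker effect. Leaving out 1 array gave 9 to 13, 0 to 4 and 7 to 13. Without wild-type replicate 3 the 4 called in gct-2 were lower, where 13.3% of all probe sets were called in either direction. The causes of these changes were not tested. The differences that changed sign were all uncalled ones near 0. For ccb382 in cct-1 the value was -0.00941 with quantile normalization and -0.0123 with median centring, and leaving out 1 array gave -0.129 to 0.0944, below 0 without cct-1 replicate 1 (-0.129) and wild-type replicate 3 (-0.0778). Leaving out 1 array in gct-2 gave -0.0435 to 0.0647 for the probe set of rps3 and rpl16 (-0.0148 without wild-type replicate 2), -0.00302 to 0.0249 for that of atp1 and AT2G07698 (-1e-04 without wild-type replicate 3) and -0.198 to 0.00866 for orfX. Of the 9 probe sets drawn by array, 8 kept their call against wild type in each of the 15 other fits of all probe sets at the same threshold, and AT2G07719 lost it in 8. Against gct-2 AT2G07719 also lost its call in 8. Array number and dim signals limit the precision.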

Other observations

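Between the identifiers of the mitochondrial probe sets (244902 to 244959 and 257318 to 257339) lay 15 probe sets with no gene in the annotation used here. Of these 5 were higher in cct-1 than in wild type, against 5.5% of all probe sets, and 0 were lower, against 6.25%. A called log2 difference of at least 1 was reached by 2 of the 15, against 1.18% of all probe sets. The largest was 257334_at, with levels of 4.25, 4.65 and 4.61 in wild type, 6.53, 7.31 and 7.20 in cct-1 and 3.64, 3.88 and 3.70 in gct-2. Its difference from wild type was 2.51 in cct-1 (adjusted p = 0.000265 with limma) and -0.77 in gct-2 (adjusted p = 0.035). 244906_at differed by 1.12 in cct-1 (adjusted p = 0.00954). 244942_at was the one higher in both mutants, by 0.89 in cct-1 (adjusted p = 0.00567) and 0.80 in gct-2 (adjusted p = 0.00708), and the mutants differed by 0.09 (adjusted p = 0.771). Between the mutants 6 of the 15 were higher in cct-1 and 0 lower, against 2.45% and 2.13% of all probe sets. Which transcripts these probe sets measure is not given in the annotation used here.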
